A study of Homo sapiens with 8 samples.

Results

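The genes of fibroblast growth factor (FGF) signalling are described here by their accessible chromatin in differentiating RUES2 cells. They are 36 of 19103 autosomal protein-coding genes and were chosen by name. Among them are 17 secreted FGF ligands, of which 3 act as hormones, and 3 intracellular FGF proteins. The 4 FGF receptors, the Sprouty and SPRED inhibitors, 3 dual-specificity phosphatases and 3 ETS transcription factors of the ETV group complete the list. Every peak that overlapped the span of such a gene, extended by 10 kb on either side, was kept. Peaks were merged over all libraries, which gave 461 regions of 276007 autosomal regions, and no region belonged to more than 1 of the genes.

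Chromatin accessibility had been measured by ATAC-seq, in which the Tn5 transposase inserts sequencing adapters into open DNA. RUES2 is an established human embryonic stem cell line, and each of 4 stages was represented by 2 libraries. The hESC libraries (day 0) came from cells in E8, a medium that contains FGF2, which had received CHIR-99021, an activator of WNT signalling, the day before. The MES libraries (day 2, mesodermal cells) followed more CHIR-99021 in RPMI with albumin and ascorbic acid. The CP libraries (day 5, cardiac progenitors) followed XAV-939, an inhibitor of WNT signalling, and the CM libraries (day 14, cardiomyocytes) followed RPMI with B27. No genotype or treatment other than the differentiation itself separated the groups, so stage and culture medium cannot be told apart. The labels do not say whether the replicates came from separate cultures, and the p-values measure only the spread between these libraries.

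FGF ligands bind FGF receptors together with heparan sulfate or, for the hormone-like ligands, with Klotho proteins. Activated receptors signal through RAS and the MAP kinases ERK1 and ERK2 and through phosphoinositide 3-kinase, and they induce transcription factors such as ETV4 and ETV5 together with their own inhibitors, the Sprouty, SPRED and DUSP proteins. FGF2 supports the culture of human pluripotent cells, FGF4 and FGF8 act during gastrulation, and FGF8 and FGF10 are known in the heart fields. FGF11, FGF12 and FGF14 are not secreted, do not activate the receptors and bind voltage-gated sodium channels.

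The sequences below are those of the 10 regions with a called difference that was kept under every alternative setting that gave a value for it. For 3 of them, which had a peak at 1 stage only, no value could be had without a library of that stage. Each is printed with 75 bases on either side of its highest summit (GRCh38, forward strand). They are shown as the DNA behind the differences between stages described after them. Capitals mark matches to any of 10 short motifs searched on both strands, and a sequence in lower case throughout held none of them.
FGF12 intron, hESC only, chr3:192747231-192747381: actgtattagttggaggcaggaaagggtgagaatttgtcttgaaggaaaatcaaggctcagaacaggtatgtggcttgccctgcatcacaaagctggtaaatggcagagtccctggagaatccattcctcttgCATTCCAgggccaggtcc
FGF14 intron, hESC, chr13:101867646-101867796: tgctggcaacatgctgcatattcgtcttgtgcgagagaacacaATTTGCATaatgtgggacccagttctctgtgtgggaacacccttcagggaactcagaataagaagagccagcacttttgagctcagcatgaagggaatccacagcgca
ETV5 intron, hESC and MES, chr3:186057656-186057806: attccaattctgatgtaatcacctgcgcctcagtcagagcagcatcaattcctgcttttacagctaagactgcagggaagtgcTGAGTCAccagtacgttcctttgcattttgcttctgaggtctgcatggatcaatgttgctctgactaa
FGFR2 exon and introns, MES and CP, chr10:121515194-121515344: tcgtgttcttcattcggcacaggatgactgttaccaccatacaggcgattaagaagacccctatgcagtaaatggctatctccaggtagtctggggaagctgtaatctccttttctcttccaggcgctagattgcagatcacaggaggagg
FGF14 far upstream intron, CP and CM, chr13:102309214-102309364: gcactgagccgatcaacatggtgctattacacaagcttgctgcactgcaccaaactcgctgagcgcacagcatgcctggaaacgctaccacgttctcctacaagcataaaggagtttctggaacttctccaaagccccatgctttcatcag
FGF14 intron, CM, chr13:101893151-101893301: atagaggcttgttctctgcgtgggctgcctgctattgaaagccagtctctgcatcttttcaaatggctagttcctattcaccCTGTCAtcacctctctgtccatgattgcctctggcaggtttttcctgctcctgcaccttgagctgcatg
ETV1 intron, CM, chr7:13920246-13920396: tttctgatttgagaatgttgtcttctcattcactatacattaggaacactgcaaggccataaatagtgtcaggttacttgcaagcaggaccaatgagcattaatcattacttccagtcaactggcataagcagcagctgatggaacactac
FGF5 intron, CM only, chr4:80307231-80307381: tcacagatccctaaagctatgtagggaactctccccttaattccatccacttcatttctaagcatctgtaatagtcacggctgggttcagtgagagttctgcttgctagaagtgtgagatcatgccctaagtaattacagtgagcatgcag
FGF12 intron, CM only, chr3:192636921-192637071: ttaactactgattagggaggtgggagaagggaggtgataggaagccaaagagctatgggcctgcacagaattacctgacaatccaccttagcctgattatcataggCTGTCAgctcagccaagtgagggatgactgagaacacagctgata
FGF14 intron, all stages, lower in CM, chr13:102091329-102091479: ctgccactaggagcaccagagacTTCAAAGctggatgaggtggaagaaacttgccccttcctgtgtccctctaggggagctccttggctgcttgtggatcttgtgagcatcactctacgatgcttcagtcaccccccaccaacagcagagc

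The value of each region in a library is the fold of the peak's pileup over its local background, as the authors' peak caller gave it. A region without a peak in a library is called absent there, which means that it did not pass a q-value of 0.01. The lists held between 55873 peaks (CM replicate 2) and 156282 peaks (MES replicate 2), with 156234 in hESC replicate 2, and the lowest background pileup per library lay between 2.54 and 4.62. Replicates of a stage thus differed in how weak a site could be called. In bulk libraries, fewer cells with an open site and less opening per cell cannot be told apart.

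The stage labels were compared with start-site peaks of marker genes. NANOG had a start-site peak in both hESC and both MES libraries and in no later one, and DPPA4 lost its peak in both CM libraries. TBX5, counted here among the CP markers, had one in the CM libraries alone. TNNT2 and MYH6 had one in both CM libraries and CP replicate 2 but not in CP replicate 1. The mesoderm markers TBXT, MIXL1, EOMES, MESP1 and TBX6 had a peak in all 8 libraries and so do not separate the stages here, and POU5F1 had none. The hESC marker SOX2, the CP markers ISL1 and HAND1 and the CM marker ACTN2 also had one in all 8. SOX2 had higher folds in CM (6.01 and 6.19) than in hESC (4.42 and 4.90). ACTN2 had lower folds in CM (6.99 and 7.26) than in hESC (9.22 and 8.49). The CM marker NPPA had a peak in CM replicate 1 alone. Of markers of other cell types, CDH5, AFP, OTX2 and POSTN had no start-site peak in any library, while KDR, SOX17, SOX1 and TCF21 had one in all 8. ACTA2 had one in the CP and CM libraries only. The part of other cell types in the results was not tested.

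In the 8 libraries, 173 and 250 (hESC), 192 and 256 (MES), 171 and 198 (CP) and 158 and 105 (CM) of the 461 FGF regions were called. The order of these numbers followed the length of the lists within each stage. Called in both libraries of a stage were 145 regions in hESC (31.5%, against 29.6% of all autosomal regions), 173 in MES (37.5%, against 31.3%), 136 in CP (29.5%, against 23.9%) and 87 in CM (18.9%, against 14.8%). Regions around genes in general were also called more often than the autosomal average. Among 160814 regions in the same windows around any protein-coding gene, the shares were 32.3%, 34.0%, 27.2% and 18.5%. With lists cut to the same length of 54018 peaks, the FGF counts were 86, 89, 91 and 78, so that CP and not MES was highest and the stages lay close together. At full length the FGF regions, with FGF12 and FGF14 included, lay within 4 percentage points of other genic regions at every stage. No test was made of that difference.

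**Figure D1:**
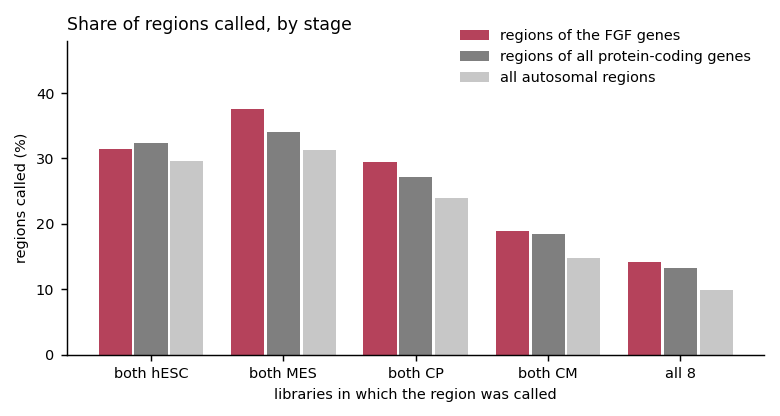
Bars show the percentage of regions called in both libraries of a stage, or in all 8 libraries, for the 461 FGF regions, the 160814 regions around any protein-coding gene and all 276007 autosomal regions. The shares were highest in MES and lowest in CM in all 3 sets, apart from those called in all 8 libraries, and the FGF genes had 37.5% in MES and 18.9% in CM. With lists of the same length this order did not hold, at 89 FGF regions in MES, 91 in CP and 78 in CM.

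Called in all 8 libraries were 65 FGF regions (14.1%, against 9.84% of all regions and 13.3% of those around genes), and 34 of the 36 genes had at least 1 such region. The exceptions were FGF7 and FGF17. Some of the windows also hold start sites of other genes, so such a region need not lie at a start site of the listed gene. At the other end, 182 regions (39.5%) were called in a single library, against 40.7% of all regions. Called in both libraries of 1 stage and in no other library were 15 regions in hESC (3.25%, against 2.99%), 15 in MES (3.25%, against 2.74%), 4 in CP (0.868%, against 0.728%) and 4 in CM (0.868%, against 1.06%). These shares were near the background.

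Position separated the constant from the variable regions. Of 84 FGF regions within 1 kb of a protein-coding start site, 43 were called in all 8 libraries (51.2%, against 56.1% of 24176 such regions in the genome). Among the 84, 68 lay at a start site of the listed gene and 18 at one of another gene, with some at both. Of the 377 FGF regions elsewhere, 22 were called in all 8 (5.84%, against 5.40%) and 174 in a single library (46.2%, against 43.1%). By the midpoint, 322 of the 461 regions lay in introns, 85 between genes, 33 in non-coding parts of exons and 21 in coding exons.

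The genes differed in how many regions they held, from 2 for FGF22 and for FGF23 to 63 for FGF12 and 89 for FGF14, with a median of 7.5. FGF12 and FGF14 are the longest genes of the list, at 628375 and 691654 bp, and together held 152 of the 461 regions. Without them, 102, 130, 106 and 71 of 309 regions were called in both libraries of hESC, MES, CP and CM. FGF12 and FGF14 had 43, 43, 30 and 16 of their 152. The shares around any protein-coding gene were 32.3%, 34.0%, 27.2% and 18.5%. At each stage FGF12 and FGF14 together lay below that share and the other 34 genes together above it, which was not tested.

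Within 1 kb of the main start site, 34 of the 36 genes had a region, of which the nearest is described, and FGF6 and FGF21 had none. Of these 34, 26 were called in all 8 libraries and 2 (FGF5 and FGF19) in 7. The remaining 6 were weak or were found in few libraries, and all 6 belong to ligand or intracellular FGF genes, whereas the main start site of every receptor, Sprouty, SPRED, DUSP and ETV gene was called in all 8 libraries. FGF7 is among the 6 by its nearest region, and a further FGF7 region within 1 kb, described below, was called in all hESC, MES and CP libraries.

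**Figure D2:**
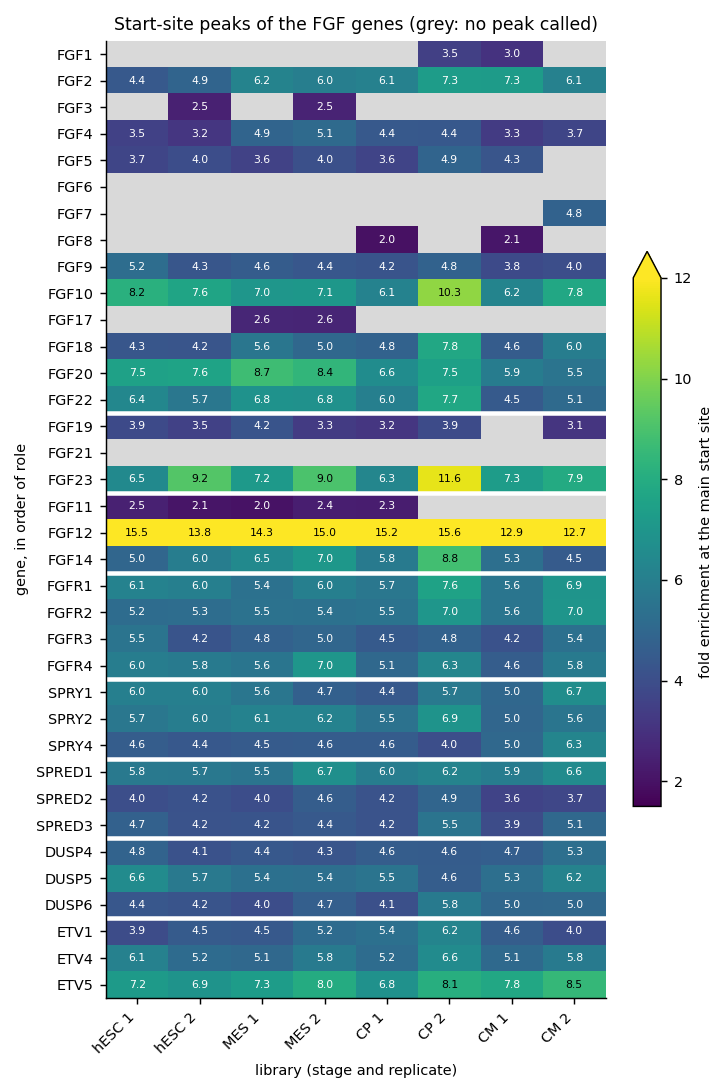
Fold enrichment of the region nearest to the main start site, within 1 kb, of each of the 36 genes (vertical axis, ordered by role and separated by white lines) in the 8 libraries (horizontal axis), with grey where no peak was called and with the colour scale ending at 12. The FGF12 start site has the highest folds, up to 15.6, and grey cells are found among ligand and intracellular FGF genes only.

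Among the secreted ligands, 7 start sites were called throughout, with folds from 3.16 (FGF4, hESC replicate 2) to 10.3 (FGF10, CP replicate 2). FGF4, a ligand known from the blastocyst and the primitive streak, had folds of 3.54 and 3.16 in hESC, then 4.87 and 5.13 in MES, 4.45 and 4.37 in CP and lastly 3.31 and 3.71 in CM. As deposited, the 2 MES values lay above those of all other libraries, but no difference passed the test. After centring they were 4.70 and 4.51, and CP replicate 1 (4.74) was higher. FGF20 as deposited had its highest values in MES as well (8.74 and 8.42) and its lowest in CM (5.91 and 5.54). After centring, MES replicate 2 (7.408) lay below both hESC values (7.551 and 7.413).

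FGF2, the ligand that the stem cell medium also supplies, was the only ligand with a called difference at its nearest start-site region. Its folds were 4.42 and 4.90 in hESC, then 6.18 and 6.0 in MES, 6.12 and 7.29 in CP and lastly 7.27 and 6.10 in CM, so that both hESC values lay below the other 6. The difference of CM from hESC was 0.74 (SE 0.13) on the log2 fold scale, with an adjusted p of 0.0141 in limma (Benjamini-Hochberg over all regions), and 0.0114 in the fit limited to regions called in all 8 libraries. It was kept under 9 of 15 alternatives. Without centring of the libraries it was 0.52, with an adjusted p of 0.0580 in limma, and it also lost its call without either hESC library or CM replicate 1 (0.57 to 0.79). The summed fold of all FGF2 regions moved the other way, with a log2 difference of -1.21 (SE 0.41), which did not pass the test (adjusted p = 0.139 in limma). The number of FGF2 regions called was 4 and 6 in hESC, 5 and 6 in MES and 1 and 4 in CP, and a single one, at the start site, was called in each CM library.

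Several developmental ligands had little or no peak at the main start site. For FGF8, a peak with a fold of 1.97 was found in CP replicate 1 and one of 2.12 in CM replicate 1. Other FGF8 regions, named after their values were seen, lay at further start sites of the gene. That at chr10:101780759-101781344 was found in both CP libraries (3.62, 6.19), both CM libraries (4.19, 4.15) and MES replicate 2 (3.05), but in no hESC library. That at chr10:101779055-101780243 was found in every hESC, MES and CP library (2.46 to 2.92) and not in CM. No tested FGF8 region was called higher or lower in any comparison. For FGF3 the peaks at the main start site were in hESC replicate 2 (2.47) and MES replicate 2 (2.54). For FGF17, a relative of FGF8, the peaks were in the 2 MES libraries alone (2.62 and 2.58).

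These FGF17 values lay below the floor of 3.49 used in the test, so they were not tested. Of the 11 FGF17 regions, 4 were called in both MES libraries and in no other, as were 15 in the whole list and 2.74% of all autosomal regions. The strongest had folds of 3.36 and 3.53 at chr8:22039807-22040163. The window reaches 10 kb beyond the gene, and 4 of the 11 regions lay at start sites of other genes. FGF17 had 6 and 10 regions called in MES, 3 and 4 in hESC, 3 and 3 in CP and 2 and 1 in CM. FGF1 had a start-site peak only in CP replicate 2 (3.49) and CM replicate 1 (3.04). FGF1 binds all FGF receptors.

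For FGF7, a ligand made by mesenchyme for neighbouring epithelium, the region nearest to the start site was called only in CM replicate 2 (4.80). A second FGF7 region a little further upstream, chr15:49421815-49422272, also lies within 1 kb of the main start site and is described after its values were seen. It had folds of 6.77 and 9.08 in hESC, then 7.69 and 8.30 in MES and 5.34 and 5.11 in CP, and no peak in CM. It was among the regions called lower in CM than in hESC (log2 difference -1.15, SE 0.18, adjusted p = 0.00801 in limma) and was not recomputed under the alternatives.

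Of the hormone-like ligands, FGF23, which regulates phosphate, had the highest start-site folds, from 6.30 (CP replicate 1) to 11.6 (CP replicate 2). As deposited, the 2 CP libraries thus held both the lowest and the highest value, and after centring hESC replicate 1 was lowest (6.50). FGF19, which signals from the gut to the liver, lay between 3.12 and 4.21 and was not called in CM replicate 1.

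Among the intracellular FGF genes, FGF12 had the strongest start site of the whole list, at 15.5 and 13.9 in hESC, then 14.3 and 15 in MES, 15.2 and 15.6 in CP and lastly 12.9 and 12.7 in CM. As deposited, both CM values were the lowest of the 8, and after centring CM differed from hESC by 0.03 (SE 0.13). FGF14 ranged from 4.51 (CM replicate 2) to 8.84 (CP replicate 2). FGF11 had folds between 2.00 and 2.45 in 5 libraries and no peak in CP replicate 2 or in CM.

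The 4 receptors ranged from 4.15 to 7.57 at their start sites. FGFR2 had 5.19 and 5.27 in hESC, then 5.47 and 5.41 in MES, 5.49 and 7.04 in CP and lastly 5.60 and 6.97 in CM, and as deposited the hESC values were the lowest. After centring, MES replicate 2 (4.76) lay below hESC (5.22 and 5.15). CM exceeded hESC by 0.48 (SE 0.11, log2 fold, adjusted p = 0.0256 in limma). Without centring, this difference was 0.26, with an adjusted p of 0.407 in limma, and without CM replicate 2 or either hESC library it was 0.36 to 0.49 and no longer called.

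Of the feedback genes, the start site of DUSP6, a phosphatase that inactivates ERK1 and ERK2, rose from 4.36 and 4.23 in hESC to 5.02 and 5.04 in CM (log2 difference 0.45, SE 0.09, adjusted p = 0.0201 in limma). As deposited, the MES values (3.99 and 4.69) lay on either side of the hESC pair and below CM, and the CP values (4.08 and 5.77) spanned both. After centring, MES (3.855 and 4.129) lay below hESC (4.385 and 4.135), and CP (4.341 and 4.866) lay below CM (5.957 and 5.665). That of ETV5, a transcription factor induced by ERK, had 7.21 and 6.91 in hESC, then 7.30 and 7.98 in MES, 6.80 and 8.10 in CP and lastly 7.78 and 8.49 in CM. CM exceeded hESC by 0.42 (SE 0.08, adjusted p = 0.0138 in limma).

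Neither call held in the fit limited to regions called in all 8 libraries (adjusted p = 0.0552 for DUSP6 and 0.0602 for ETV5 in limma), and neither held without centring, where the differences were 0.23 and 0.20. Of the 26 start sites called throughout, 4 were thus higher in CM than in hESC and none was lower, against 6.76% and 16.8% of all tested regions. Only 2 of the 4, FGF2 and FGFR2, held in the limited fit, where 6.17% of all regions were higher and 5.82% lower. In the fit of all tested regions, none of the 26 was called in MES against hESC or in CP against MES. In CM against CP only ETV5 was called there (0.42, SE 0.08, adjusted p = 0.0422 in limma, kept under 3 of 15 alternatives). Before centring, the CM libraries had lower folds at regions called everywhere than the hESC libraries, with medians of 2.56 and 2.64 against 2.80 and 2.84 on the log2 scale, and centring removes this gap. The start sites of the Sprouty genes, which inhibit RAS signalling, lay between 4.02 and 6.88, and those of the SPRED genes, which also restrain RAS, between 3.61 and 6.72. None of them was called in any comparison.

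To compare the stages region by region, the log2 fold of each library was centred on its median over regions called everywhere, and regions that were absent or weak were set to a common floor, a fold of 3.49. A difference from a stage without a peak is therefore a difference from the floor and not a fold between 2 measured levels, and floor values have no spread, which lowers its standard error. Regions above the floor in at least 2 libraries were tested, 216 of the 461 FGF regions and 137478 in all. Because a region could pass through the very stage in which it is high, the counts below are descriptions of the tested regions.

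From hESC to MES, 15 FGF regions were higher (6.94%, against 6.54% of all tested regions) and 13 were lower (6.02%, against 6.86%). None of the 28 lay at a main start site. The higher ones belonged to 8 genes, with 6 at FGF14, 3 at FGFR2 and 1 each at SPRED1, SPRED2, ETV4, FGF10, FGF12 and FGF18, and the lower ones belonged to 5 genes, with 5 at FGF14 and 4 at FGF12. Leaving out any single hESC or MES library left 1 to 3 higher and 3 to 7 lower.

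FGFR1 and FGFR2 are the receptors known in embryonic mesoderm. The FGFR2 region at chr10:121514952-121515466, over a coding exon 83.2 kb downstream of the start site, was absent from both hESC libraries. It had folds of 6.12 and 7.08 in MES and 3.70 and 3.67 in CP, and it was absent again from CM. The MES values did not overlap those of any other stage. The rise from hESC to MES was 0.80 (SE 0.09, log2 above the floor, adjusted p = 0.00412 in limma), and it was kept under 13 of 13 alternatives. The fall from MES to CP was -0.71 (adjusted p = 0.00952 in limma, kept under 9 of 13). Outside MES only CP replicate 1 lay above the floor, so the region entered the test through MES and both differences are descriptions. Another FGFR2 region, named after its values were seen, chr10:121527677-121528095, was absent from hESC too but stayed called afterwards, at 6.66 and 8.90 in MES, 4.22 and 8.05 in CP and lastly 6.13 and 7.12 in CM. FGFR1 had 2 regions that were called in the first 3 stages and in neither CM library, and both were among those lower in CM than in hESC.

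The intronic SPRED2 region at chr2:65331361-65331904 was also absent from hESC, at 7.12 and 7.09 in MES, 4.83 and 4.90 in CP and lastly 3.96 and 4.78 in CM, so that MES stood above both later stages. Its rise to MES was 0.91 (SE 0.13, adjusted p = 0.0103 in limma, kept under 9 of 14 alternatives). SPRED2 acts on RAS and RAF signalling like SPRED1. A region upstream of SPRED1 (chr15:38244508-38244984) was found in MES only, at 5.65 and 5.37. Between genes downstream of FGF18, a ligand known in bone and lung (chr5:171462159-171462913), the folds were 4.84 and 5.68 in hESC, then 7.98 and 8.82 in MES, 4.55 and 4.87 in CP and 3.15 in CM replicate 1, with no peak in CM replicate 2. MES was higher than hESC there by 0.57 (SE 0.11, adjusted p = 0.0270 in limma, kept under 6 of 14 alternatives).

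Found in hESC alone was the FGF12 region at chr3:192746996-192747491, in an intron of a longer transcript 19.7 kb upstream of the main start site. Its folds were 7.89 and 7.56 in hESC, and no other library had a peak there. It entered the test through hESC alone, and its values are a description. The FGF14 region at chr13:101867573-101867900 had 8.63 and 9.20 in hESC and otherwise only 4.05 in MES replicate 2, a difference of -1.32 (SE 0.07, adjusted p = 0.00137 in limma, kept under 14 of 14). Without the hESC libraries this region would not have entered the test, so its result is a description as well.

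ETV5 had an intronic region 51.3 kb downstream of its start site (chr3:186057575-186057909) with 7.24 and 8.10 in hESC and 4.07 and 4.94 in MES, and no peak was called in CP or CM. The levels of hESC and MES did not overlap. The first step was -0.88 (SE 0.09, adjusted p = 0.00324 in limma), and the difference of CM from hESC was -1.12 (adjusted p = 0.00134 in limma). Both were kept under 14 of 14 alternatives. The ETV5 start site did not fall with it.

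**Figure D3:**
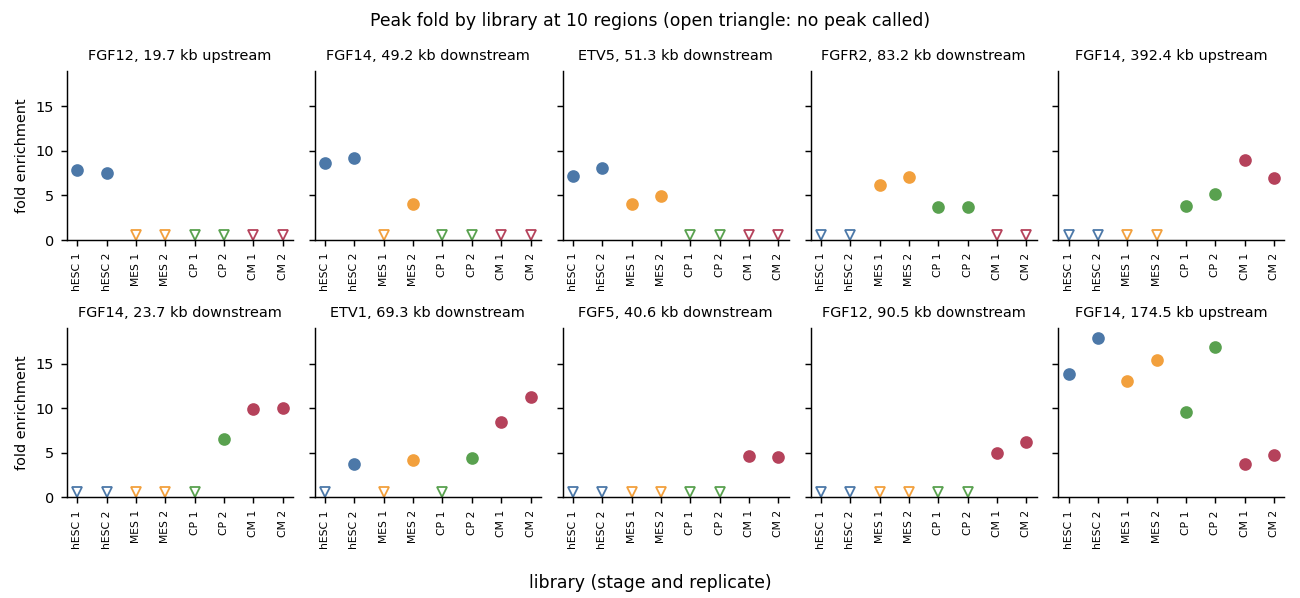
Fold enrichment (vertical axes) in the 8 libraries (horizontal axes) at the 10 regions whose sequences are printed, with an open triangle near the axis where no peak was called. The first 3 panels are highest in hESC, FGFR2 is highest in MES, the next 5 are highest in CM, and the last, in FGF14, drops in CM to 3.77 and 4.80.

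From MES to CP, 4 FGF regions were higher (1.85%, against 1.46%) and 14 were lower (6.48%, against 5.96%). The 4 lay in introns of FGF10, FGF12 and FGF14. Without MES replicate 2, no FGF region was higher and none was lower, and without MES replicate 1 the numbers were 0 and 2. FGF10 is a ligand of the second heart field and of lung and limb buds. Its region at chr5:44345880-44346248, 43.4 kb downstream of the start site, had 4.70 and 6.27 in CP and 4.46 in MES replicate 2, and no peak in hESC, MES replicate 1 or CM. The CP values lay above the others, and the difference of CP from MES was 0.48 (SE 0.08, adjusted p = 0.0293 in limma), which was kept under 1 of 12 alternatives. This region entered the test through CP, so the difference is a description. Regions found in CP alone were at FGF14 (4.91 and 6.50, chr13:101880108-101880400), FGF12 (4.85 and 6.04, chr3:192334024-192334299), FGF1 (3.77 and 4.28) and SPRY1 (3.02 and 2.65).

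From CP to CM, 6 regions were higher (2.78%, against 2.45%) and 6 were lower (2.78%, against 2.49%), and both numbers were 0 when either CM library was left out. Without centring, 2 were higher and 6 lower. The largest rise was at ETV1, a transcription factor that marks fast-conducting heart muscle. Its intronic region at chr7:13920090-13920687, 69.3 kb downstream of the start site, had folds of 8.44 and 11.3 in CM. Before that it was called once per stage, at 3.74 (hESC replicate 2), 4.25 (MES replicate 2) and 4.41 (CP replicate 2), so that the CM values stood well above the rest.

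That ETV1 region rose by 1.64 from CP to CM (SE 0.13, adjusted p = 0.00417 in limma, kept under 11 of 14 alternatives) and by 1.66 from hESC to CM (adjusted p = 0.00136 in limma, kept under 14 of 14). The ETV1 start site had 3.94 and 4.50 in hESC, then 4.45 and 5.18 in MES, 5.39 and 6.25 in CP and lastly 4.60 and 3.97 in CM, with both CP values above the rest as deposited. After centring, CP replicate 2 (5.27) lay below CM replicate 1 (5.46). Neither CP against MES (0.31, SE 0.12, adjusted p = 0.247 in limma) nor CM against hESC (0.24, adjusted p = 0.242 in limma) passed the test. The summed fold of all ETV1 regions was higher in CM than in hESC by 0.76 (SE 0.17, log2), which did not pass the test (adjusted p = 0.0660 in limma).

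Among intracellular FGF genes, the FGF14 intron gained peaks at 2 sites. At chr13:101892964-101893499, 23.7 kb downstream of the start site, the folds were 9.93 and 10.0 in CM and 6.50 in CP replicate 2, with no earlier peak. At chr13:102309123-102309523, 392 kb upstream of the main start site within the intron of a longer transcript, they were 3.83 and 5.11 in CP and 8.96 and 7.01 in CM. CM exceeded hESC by 1.72 (SE 0.20, adjusted p = 0.00380 in limma) and by 1.39 (SE 0.14, adjusted p = 0.00272 in limma), each kept under 14 of 14 alternatives. CM exceeded CP by 1.394 and by 1.125 (adjusted p = 0.0212 and 0.0148 in limma), kept under 7 and 8 of 14. The first of these regions would not have entered the test without the CM libraries, so its differences are descriptions.

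Found in CM alone were the regions in introns of FGF12 (5.03 and 6.22, chr3:192636719-192637291), FGF5 (4.67 and 4.55, chr4:80307174-80307441), FGF7 (7.41 and 4.52) and FGF20 (3.10 and 4.24). FGF5 is known as a regulator of hair growth. These regions could enter the test through CM alone, and their values are a description.

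One FGF14 region was strong until CP and fell in CM. At chr13:102091176-102091688 the folds were 13.8 and 17.8 in hESC, 13.1 and 15.4 in MES and 9.61 and 16.9 in CP, against 3.77 and 4.80 in CM, and the CM values did not overlap the other stages. It was called in all 8 libraries, so no floor enters its difference of -1.66 from hESC to CM (SE 0.20, adjusted p = 0.00402 in limma, and 0.000763 in the fit limited to such regions). This difference from hESC was kept under 15 of 15 alternatives and lay between -1.88 and -1.34. The fall from CP to CM was -1.30 (SE 0.20, adjusted p = 0.0251 in limma) and was kept under 8 of 15. The SPRED3 region at chr19:38394430-38395045, over a coding exon, had 6.24 to 8.79 in the first 3 stages. It fell to 3.17 in CM replicate 1 and to no peak in CM replicate 2. CM differed from hESC by -1.14 (SE 0.12, adjusted p = 0.00277 in limma, kept under 13 of 14). Against CP the difference was -0.88 (SE 0.12, adjusted p = 0.0173 in limma, kept under 7 of 14).

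**Figure D4:**
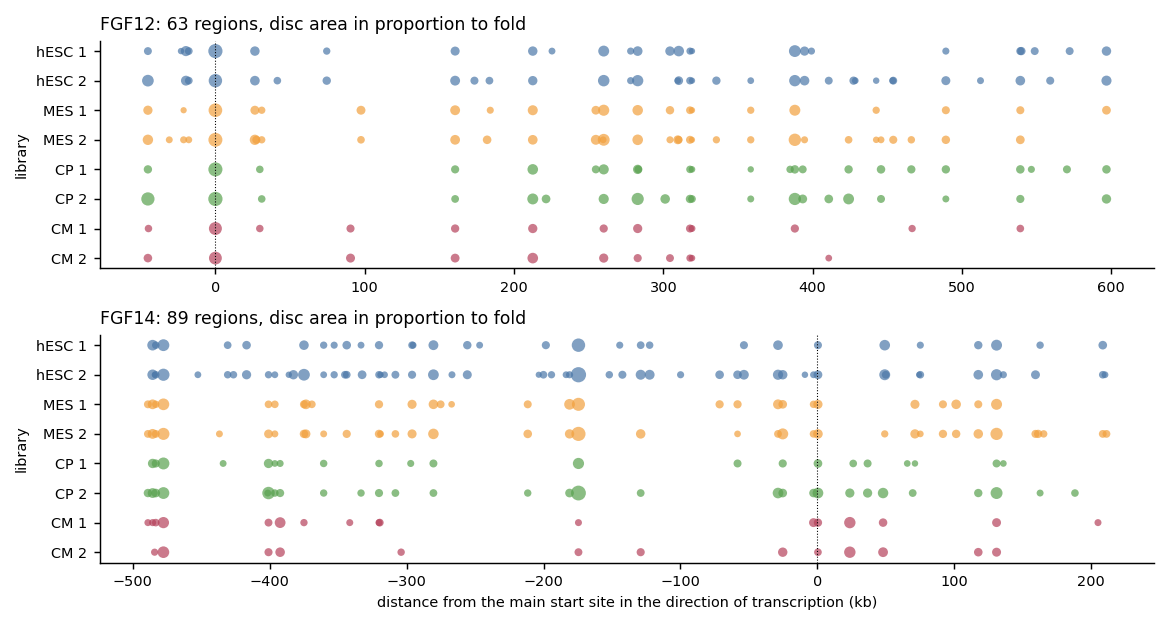
Regions of FGF12 and FGF14 by distance from the main start site in the direction of transcription (horizontal axis, kb) in each library (vertical axis), with disc area in proportion to fold. FGF12 had 26 and 33 regions called in hESC and 13 and 11 in CM, and FGF14 had 30 and 55 in hESC and 17 and 13 in CM.

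Over the whole course from hESC to CM, 19 FGF regions were higher (8.80%, against 6.76%) and 30 were lower (13.9%, against 16.8%). Without centring, 7 were higher and 33 lower. Without CM replicate 2, the shortest list, 8 were higher and 11 lower, and without CM replicate 1 or either hESC library there were 6 to 8 higher and 13 to 19 lower. FGF12 and FGF14 made up 16 of the 30 lower regions and 3 of the 19 higher ones, and they held 78 of the 216 tested regions. The other higher regions were spread over 12 genes.

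The fit limited to regions called in all 8 libraries has no floor and tested 65 FGF regions of 27170. In CM against hESC it found 5 higher (7.69%, against 6.17%) and 1 lower (1.54%, against 5.82%), the FGF14 region described above. The 5 were the start sites of FGF2 and FGFR2 and, named after their values were seen, regions at FGF19, FGF11 and FGF1. The FGF19 region had the largest difference, with folds of 2.52 and 2.97 in hESC and 4.35 and 3.84 in CM (0.80, SE 0.16, adjusted p = 0.0107 in limma). The median difference over the 65 was 0.19, against 0.10 over all 27170.

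In CM against CP this fit found that FGF14 region as the only lower one (1.54%, against 1.24%) and none higher (0.32% of all). There 10 of the 65 had a positive difference at an unadjusted p under 0.05 and 1 a negative one. Over all 27170 regions, 10.6% were higher and 8.18% lower under that limit. The same fit called no FGF region in MES against hESC (0.795% of all) or in CP against MES (0.364%), where 2 and 5 of the 65 had an unadjusted p under 0.05. Over all 27170 regions, the shares under that limit were 4.69% higher and 3.80% lower in the first and 4.49% higher and 5.62% lower in the second. In the fit with the floor, the same 2 comparisons had 28 and 18.

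**Figure D5:**
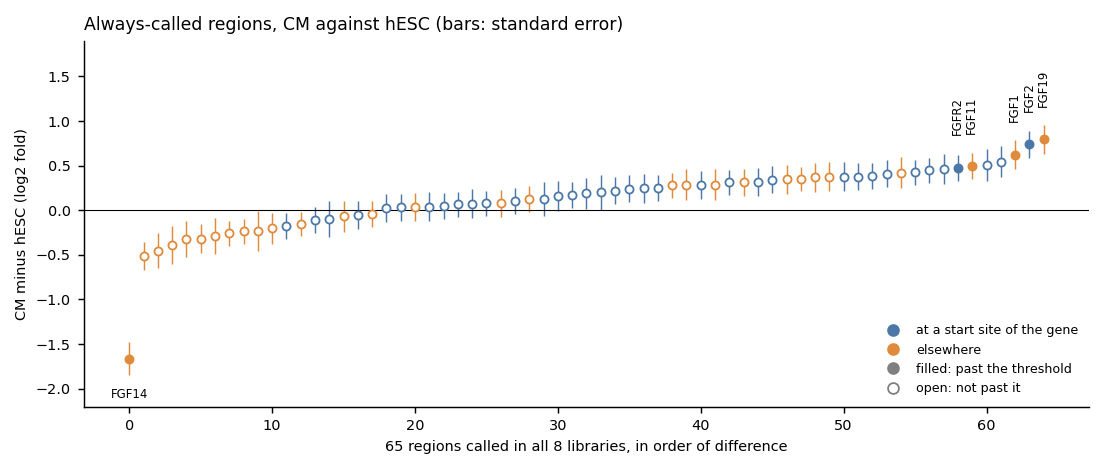
Difference of CM from hESC (vertical axis, log2 fold, with standard errors) for the 65 FGF regions called in all 8 libraries, in order of size, blue at a start site of the gene and orange elsewhere, filled where the adjusted p passed the threshold. The FGF14 region stands apart at -1.66, and 5 regions at FGF19, FGF2, FGF1, FGF11 and FGFR2 passed the threshold above 0.

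Summed over all regions of a gene, the fold was called different for 1 of the 36 genes in 1 comparison. A region without a peak adds 0 to this sum, so the sum also follows how many peaks a library's list held. FGF12 had 26 and 33 regions called in hESC and 13 and 11 in CM, and the part of list length was not tested. FGF12, which modulates cardiac sodium channels, had log2 totals of 7.33 and 7.41 in hESC, then 7.0 and 7.20 in MES, 7.16 and 6.96 in CP and lastly 6.47 and 6.51 in CM, and both CM values were the lowest. CM was below hESC by -0.88 (SE 0.17, adjusted p = 0.0468 in limma), and 2.85% of 17915 genes were lower in that comparison. The call was kept under 3 of 15 alternatives. FGF14 had a difference of -0.94 that did not pass (adjusted p = 0.0847 in limma).

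No gene total was higher or lower in MES against hESC (0.0893% of all genes in either direction), CP against MES (0.0837%) or CM against CP (0.837%) in limma, where 3, 4 and 9 of the 36 had an unadjusted p under 0.05. The same limit was met over all genes by 3.82% higher and 2.73% lower, by 2.14% higher and 4.19% lower, and by 4.40% higher and 10.2% lower. The median difference of the 36 totals was 0.09, -0.02, -0.06 and, for CM against hESC, 0.08, against -0.01, 0.00, 0.00 and -0.01 over all genes. Tested as well were 39 other genes of the pathway, among them the receptor-like FGFRL1, the co-receptor KLB, the adaptor FRS2, RAS, RAF and MAP kinases and heparan sulfate enzymes. None was higher or lower in any of the 4 comparisons, with 3, 3, 3 and 9 at an unadjusted p under 0.05. For CM against hESC, the last of these, 9.42% of all genes were higher and 15.5% lower under that limit.

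The motifs searched in 200 bp around each region's midpoint were AGATAA for the GATA factors, CTTTGAT or CTTTGAA for TCF and LEF factors, ATGCAAAT for POU factors and GGTGTGA for T-box factors. ETS factors were searched as CCGGAAG, TEAD factors as CATTCCA, MEF2 as CTAAAAATA, MEIS as TGACAG, AP-1 as TGAGTCA and the core of CTCF sites as AGGGGGC or AGGTGGC, on both strands. Among the 65 FGF regions called in all 8 libraries, 13 held the CTCF core, against 19.3% of all such regions, and 3 the ETS motif (4.62%, against 6.0%). Among the 25 FGF regions called in both libraries of CP, of CM or of both and of no earlier stage, 6 held GATA (24.0%, against 21.9%) and 7 held MEIS (28.0%, against 26.9%). These shares were near those of all regions of the same class.

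Among the 87 FGF regions called in both libraries of hESC, of MES or of both and of no later stage, 14 held AP-1 (16.1%, against 6.88% of 52783 such regions), and the ETV5 region printed above is of that class. Among the 41 called in both libraries of MES alone, 3 held GATA (7.32%, against 17.5%). In the printed sequences, the FGF12 hESC region held TEAD, the FGF14 hESC region POU and the ETV5 region AP-1. The FGF14 CM region and the FGF12 CM region held MEIS, and the FGF14 region that fell in CM held TCF/LEF. The printed sequences of the FGFR2, ETV1 and FGF5 regions and of the far upstream FGF14 region held none of the 10 motifs. The shares above rest on a different window, the 200 bp around the midpoint. In that window the ETV1 region held TEAD, the FGF5 region MEIS and the FGF12 hESC region GATA but not TEAD. There the ETV5 region also held TEAD and the FGF14 hESC region also held MEIS. A match is a string of letters and not a measured binding site.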

How the data were processed

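ATAC-seq peak lists of 8 RUES2 libraries, 2 at each of 4 stages, were used as deposited. Reads had been aligned by the authors to hg38 (BWA-MEM, BWA 0.7.13), limited to mapping qualities over 30 and freed of duplicates (Picard). Peaks came from MACS2 2.1.0, run on each library alone with a q-value limit of 0.01, a 100 bp shift and 200 bp extension. For each peak the deposited lists hold a fold (the ratio of pileup to local background), a −log10 p-value, a −log10 q-value and a display score, which was not used. The submitters' processing notes also name bedtools 2.26.0. Reads per library were not used here. The number of peaks per list and the lowest background pileup stand for depth, and a peak missing from a shorter list may be a matter of depth.

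Peaks on 22 autosomes were merged where they overlapped or touched. Genes and start sites came from GENCODE 44 (GRCh38) and sequence from the same build. Log2 fold of the highest peak was centred per library on its median over 27170 regions called in all 8. Absent or weaker regions were set to a floor of 1.80 (log2), the highest over libraries of the median of peaks with a −log10 q under 2.2. CM replicate 2, which set it, had 4 such peaks, and 4 libraries had none. Stage was fitted in limma 3.58.1 (R 4.3.3) on all 8 libraries, two-sided, with Benjamini-Hochberg adjustment over all regions or genes tested and a threshold of 0.05. Gene totals were log2(summed fold + 1), for genes with a mean of at least 1 on that scale. The fits were tested on simulated data. Tables and figures were made in Python 3.11.15 (pandas 2.3.3, numpy 2.4.6, matplotlib 3.10.9, scipy 1.17.1).

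The genes, lists and tests were chosen with earlier results of these data known. Values per library are given for main start sites, for the 5 strongest regions of each stage found there alone, for the 5 regions with the smallest p per comparison and direction, and for gene totals past the threshold. Alternatives were another floor, no floor, no centring, only peaks with −log10 q from 5 upwards, equally long lists (54018 peaks), recovered pileup, gene spans alone, a pseudocount of 5, no filter on low totals, a replicate term and each library left out. The labels do not say that replicate numbers pair the libraries. Deviations of same-numbered libraries correlated between stages from -0.12 to 0.19 over regions, with 0.13 to 0.19 among hESC, MES and CP and at most 0.0007 for CM with any other stage, so the numbers were not treated as pairs.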

Additional observations from a re-analysis of the deposited data

How the results depend on the processing

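Of 65 called differences of named regions and gene totals, 13 kept direction and call under every alternative that gave a value for them. Among these are differences of FGF12 and FGF5 regions seen at a single stage, which give no value without a library of that stage, so that the alternatives most able to end those calls were not run on them. Certain FGFR2 and FGF14 regions among the kept calls also passed the filter only through the stage in which they are high. The FGF region counts, in the order MES against hESC, CP against MES, CM against CP and CM against hESC, each higher and then lower, were 15, 13, 4, 14, 6, 6, 19 and 30. Limited to regions called in all 8 libraries they were 0, 0, 0, 0, 0, 1, 5 and 1, where no floor applies and fewer regions are tested. With the floor raised by a factor of 1.5 they were 5, 7, 0, 4, 5, 1, 12 and 17. Lists of equal length gave 1, 3, 0, 1, 4, 0, 8 and 8. At a −log10 q of at least 5, 8 were higher in MES than hESC, 1 higher in CP than MES and 3 lower in CM than CP. Recovered pileup gave 23 higher in MES than hESC and 11 lower in CM than CP. Without centring, 2 were higher in CM than CP and 7 higher in CM than hESC. For these changes, apart from the limit to regions in all libraries, the cause was not tested.

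With each library left out in turn, the same counts ran from 1 to 14, 3 to 10, 0 to 8, 0 to 10, 0 to 5, 0 to 5, 6 to 27 and 11 to 34. A stage left with 1 library is assumed to vary like the others. With the replicate number as a block, they were 10, 10, 4, 10, 5, 7, 17 and 27. The count of gene totals changed in CM against hESC went from 1 to 0 under the block, and 6 of the 65 called differences lost their call under it. Whether the numbers mark pairs is not given by the labels, and the correlations between stages are over 0.1 among hESC, MES and CP only. That count was 0 at a −log10 q of at least 5 and with no filter on low totals, 3 with lists of equal length and with a pseudocount of 5, and 0 to 2 with a library left out. In MES against hESC it was 2 with lists of equal length. The summed fold of FGF1, not called at -0.41 in CM against hESC, turned to 0.23 with lists of equal length, and with a library left out it ran from -0.99 (without CM replicate 1) to 0.16 (without CM replicate 2).

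FGF regions called in both libraries of hESC, MES, CP and CM were 145, 173, 136 and 87. Called in either library were 278, 275, 233 and 176. Lists of equal length left 86, 89, 91 and 78, with CP highest and the stages close together. A single library of each stage gave 173 to 250, 192 to 256, 171 to 198 and 105 to 158. A weak site missing from the shortest list, the 55873 peaks of CM replicate 2, was not detected there, which does not show that it was closed.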
